A study of Mus musculus with 22 samples.

Results

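The genes described here are those of the motile cilium and of the ependymal cells that carry it in the brain. A list of 37 genes was taken by name, without the dynein heavy chains, and 36 of them were measured among 20239 genes with 1 symbol on the array (21225 features in all). Dnai1 was found under its synonym Dnaic1, and Drc1 was not analysed here. Each group consisted of female mice 8 to 10 weeks old, either WT (5 animals) or their Ts1Cje littermates (6 animals). Cortex and hippocampus were taken from every animal and hybridized to Affymetrix mouse gene ST 1.0 arrays, which gave 22 arrays from 11 animals. Ts1Cje mice, used to model Down syndrome, have a distal piece of chromosome 16 in excess, joined to chromosome 12. The extra piece holds only part of the mouse counterpart of the human chromosome, and a short end of chromosome 12 is lost. Every Ts1Cje animal carries the same rearrangement, Ts1Cje males had been bred repeatedly to C57Bl/6J females, and no other allele or agent is named. None of the 36 genes lies on chromosome 16 and 1, Ak7, lies on chromosome 12.

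Ependymal cells line the ventricles and beat tufts of motile cilia that move cerebrospinal fluid. Commitment to this state runs through regulators such as Mcidas and Foxj1, which switch on the genes of the axoneme, the microtubule core of the cilium. Dynein arms on the axoneme generate the beat, radial spokes and the central apparatus regulate it, and a molecular ruler, the nexin-dynein regulatory complex and tektins set and stabilize its repeat. Both dissections were whole tissue pieces in which ependymal cells are few, so more ependymal cells in a piece and more RNA per cell cannot be told apart.

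The values are log2 signals, 1 per gene and array. Of the 36 genes, 30 had a mean signal below the median of all genes in cortex and 28 in hippocampus, where the medians over genes were 7.58 and 6.95. Their signals were also coarse. In cortex 23 of 36 (63.9%) held the same value, to 6 decimals, on more than 1 array, against 43.2% of all genes, and in hippocampus 29 of 36 (80.6%) against 51.9%. Animals 60 (WT) and 64 (Ts1Cje) stood apart from the other 9 in both regions. In cortex both lay above all others for 11 of the genes, Foxj1 and Tekt1 among them, and below all others for 7, among them Rsph4a and Enkur, while 37.1% and 28.8% of all genes did the same. In hippocampus the counts were 5 and 3, against 21.1% and 16.4% of all genes. Dnah11, a dynein heavy chain whose signal marks the Ts1Cje rearrangement, separated the genotypes as labelled. Its WT arrays read 6.62 to 7.53 and its Ts1Cje arrays 9.71 to 9.88 in cortex, with 5.79 to 6.19 against 9.01 to 9.31 in hippocampus. It is not among the 36 genes, and nothing below rests on it.

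Most cilia genes had a higher signal in hippocampus than in cortex, relative to the other genes on the array. The medians of the arrays lay between 7.56 and 7.65 for cortex and between 6.94 and 6.98 for hippocampus. Each array was therefore centred on its median before the regions were compared. With limma, 24 of 36 cilia genes were higher in hippocampus at an adjusted p under 0.05, 2 were lower and 10 passed in neither direction. Over all genes tested 19.9% were called higher and 21.6% lower, 41.4% in all. The median difference, hippocampus minus cortex, was 0.35 on the log2 scale for the cilia genes and -0.01 for all genes. On the deposited values without centring, where the median of all genes shifts to -0.63, the cilia genes had a median of -0.28, with 7 higher and 22 lower, and 95.3% of all genes were called. The animal as a replicate block, which uses the pairing of the regions, raised the calls to 27 higher and 3 lower (random) or 4 lower (fixed). Over all genes it raised the calls from 41.4% to 54.2% (random) or 54.1% (fixed). Of the 24 genes higher after centring, 7 were higher, 10 lower and 7 not called on the deposited scale. The region comparison is therefore one of cilia genes relative to other genes. Region, RNA kit and any separate normalization of the regions cannot be told apart, because cortex and hippocampus RNA were extracted with different kits.

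**Figure D1:**
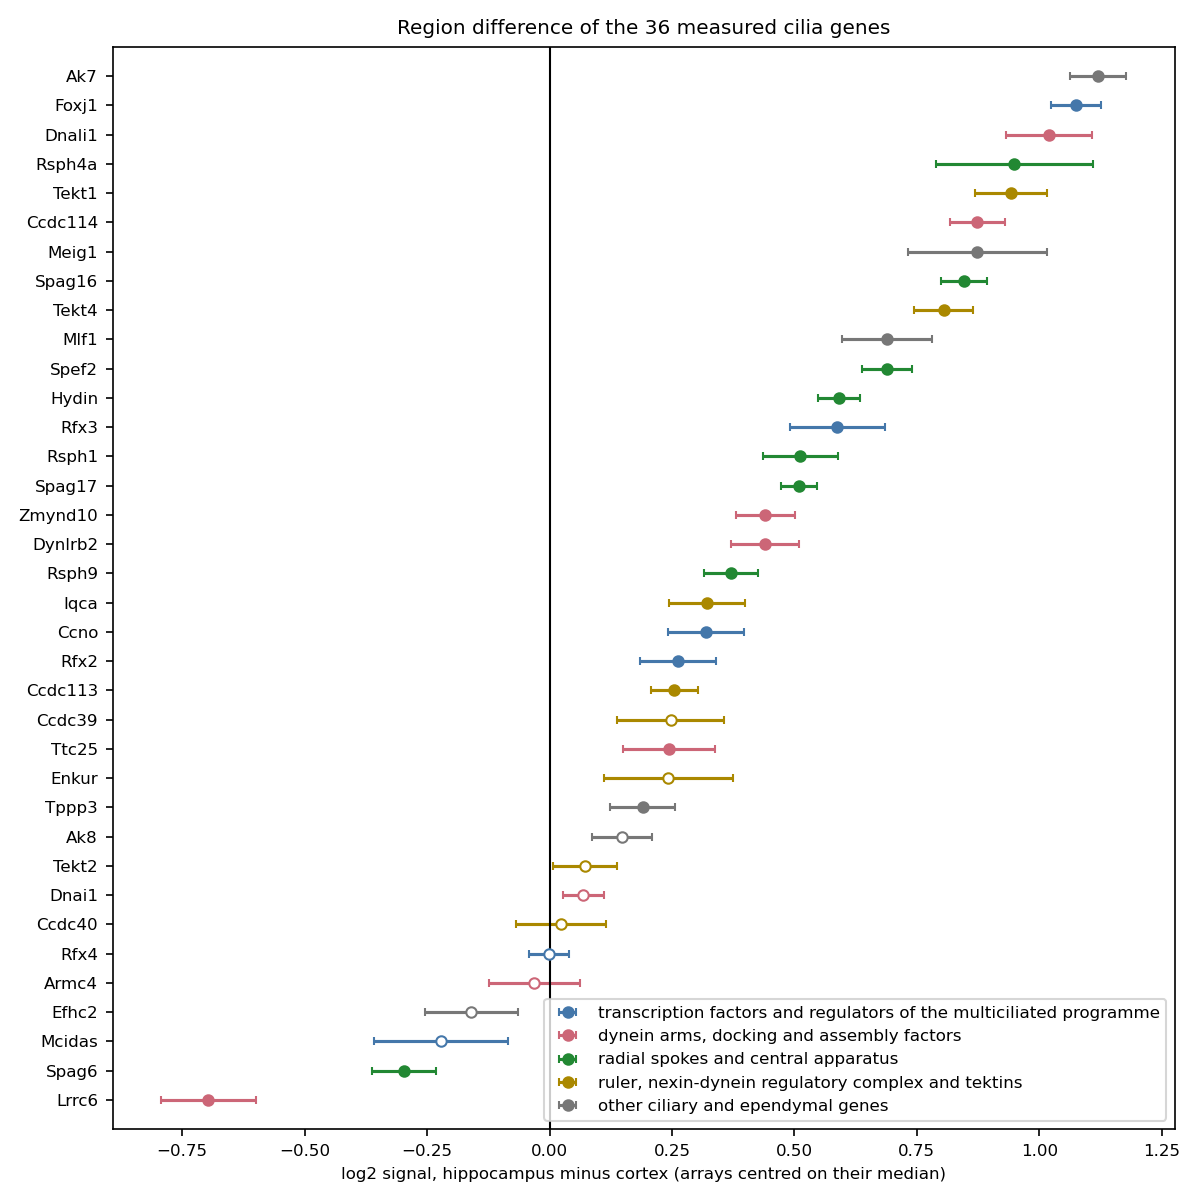
Each point is the log2 difference, hippocampus minus cortex, of 1 of the 36 cilia genes on arrays centred on their median, with its standard error (11 animals, limma), coloured by role. Filled points passed an adjusted p under 0.05: 24 lie right of 0, and Spag6 and Lrrc6 lie left of it. On the deposited values without centring only 7 of the 24 stay higher.

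For 10 of the 24 higher genes all 11 centred hippocampus arrays lay above all 11 centred cortex arrays. The 10 were Ak7, Foxj1, Dnali1, Tekt1, Ccdc114, Spag16, Tekt4, Spef2, Hydin and Spag17. In 9.73% of all genes the regions did not overlap in one direction or the other. Higher cilia genes were found at every brightness. Among the 6746 dimmest genes by mean signal 10 of 14 cilia genes were higher, against 16.9% of the genes there. Among the 6747 genes of middle signal 12 of 20 were higher and 2 lower, against 20.4% higher and 21.8% lower. Among the 6746 brightest 2 of 2 were higher, against 22.4%.

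Among the regulators 4 of 6 were higher in hippocampus and the other 2 were not called. Foxj1, the forkhead factor that drives motile ciliogenesis, read 6.87, 6.52, 6.70, 6.70 and 6.86 in the 5 WT cortex arrays, and 6.52 to 6.93 (median 6.70) in the 6 Ts1Cje cortex arrays. In hippocampus it read 7.44, 7.11, 7.26, 7.21 and 7.15 in WT and 7.02 to 7.19 (median 7.10) in Ts1Cje. Every hippocampus array therefore lay above every cortex array even before centring. After centring the difference was 1.07 ± 0.0512 (SE, n = 11 animals, 95% CI 0.97 to 1.18), or 2.11-fold, with a limma adjusted p of 2.78e-13. It was 1.12 ± 0.0824 in WT (n = 5) and 1.03 ± 0.0666 in Ts1Cje (n = 6). On the deposited scale Foxj1 was higher by 0.45 (limma adjusted p = 7.24e-08). Rfx2 and Rfx3, which bind the X-box of cilia gene promoters, were higher by 0.26 and 0.59, and Ccno, needed to multiply centrioles in multiciliated cells, by 0.32. On the deposited scale these 3 read -0.36, -0.04 and -0.31, lower for Rfx2 and Ccno and not called for Rfx3. Mcidas, upstream of Foxj1, had a difference of -0.22 ± 0.137 and Rfx4, a family member also found in neural progenitors and astrocytes, one of 0.00 ± 0.0409, and neither was called. Mcidas was below 0 in 11 of 11 animals, at -0.84 in animal 60, -0.50 in animal 64 and -0.17 to -0.01 in the other animals. With the animal as a fixed replicate block it was called lower (limma adjusted p = 0.0159), with a random block it was not.

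Most cilia genes were higher in hippocampus after centring, and 3 of the regulators are RFX factors. The promoters were therefore searched for the RFX half-site GTTGCCA on both strands. It was found in the window from 250 bases before to 50 after the RefSeq start in 7 of the 29 cilia genes with a window (24.1%), against 5.02% of 27025 genes. The 7 were Ccno, Hydin, Iqca, Mcidas, Mlf1, Tekt1 and Zmynd10, and 6 of them, all but Mcidas, were higher in hippocampus after centring, as were 19 of the 29. On the deposited scale Tekt1 stayed higher, Hydin and Mlf1 were not called, and Ccno, Iqca, Mcidas and Zmynd10 were lower. A fixed form of the full X-box, in which the half-site is followed by TGGNAAC, was found in 0 of 29 and in 0.0851% of genes. X-boxes of other sequence or spacing were not searched, so these counts do not show that the promoters lack a full X-box. The forkhead core GTAAACA, none of whose matches here overlaps a half-site match, was found in Ak7 and Mlf1, 2 of 29 (6.9%), against 4.05% of genes. A match of letters does not show that a factor binds. The 6 stretches that lie before the start are shown because they hold the half-site, in capitals, on the gene's own strand, with 20 bases to each side where the stretch does not reach the start (RefSeq, GRCm38.p6).
Iqca (chr1:90153510-90153556, minus strand): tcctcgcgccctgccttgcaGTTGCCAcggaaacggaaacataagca
Mlf1 (chr3:67373972-67374018, plus strand): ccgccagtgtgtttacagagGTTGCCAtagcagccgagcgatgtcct
Hydin (chr8:110266943-110266976, plus strand): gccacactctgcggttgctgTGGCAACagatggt
Tekt1 (chr11:72361883-72361917, minus strand): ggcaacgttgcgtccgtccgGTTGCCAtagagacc
Ccno (chr13:112987563-112987609, plus strand): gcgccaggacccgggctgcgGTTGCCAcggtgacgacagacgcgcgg
Mcidas (chr13:112993653-112993699, plus strand): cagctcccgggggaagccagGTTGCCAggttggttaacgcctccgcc
In Hydin the half-site runs on the opposite strand, so its complement is in capitals. Counted from the start, with -1 the base before it, the last capital lies at -8 in Hydin, -9 in Tekt1, -94 in Iqca, -99 in Mlf1, -189 in Mcidas and -213 in Ccno.

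**Figure D2:**
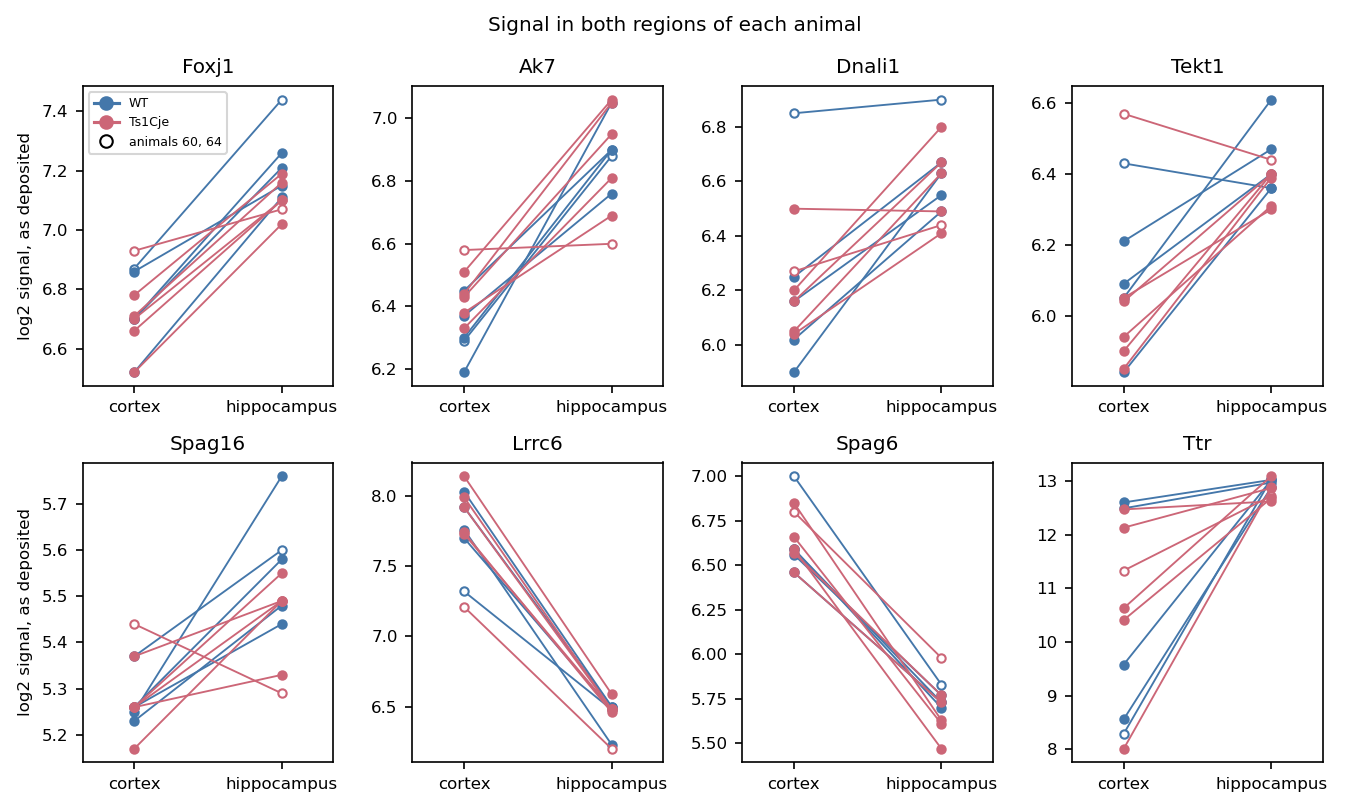
Log2 signal as deposited in both regions of each of the 11 animals for 7 cilia genes and for Ttr, the choroid plexus transthyretin gene. Lines join the arrays of 1 animal (blue WT, red Ts1Cje, open points animals 60 and 64). Foxj1 and Ak7 are higher in hippocampus in all 11 animals, Lrrc6 and Spag6 are lower in all 11, and Ttr spans 8.01 to 12.60 in cortex but 12.62 to 13.09 in hippocampus.

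Genes of the dynein arms, their docking and their assembly gave 5 higher, 1 lower and 2 not called of 8. Dnali1, a light intermediate chain of the inner arms, read 6.85, 5.90, 6.25, 6.16 and 6.02 in WT cortex and 6.04 to 6.50 (median 6.18) in Ts1Cje cortex. In hippocampus it read 6.90, 6.63, 6.67, 6.55 and 6.49 in WT and 6.41 to 6.80 (median 6.56) in Ts1Cje. The deposited values of the regions overlap, with the highest cortex arrays at 6.85 (animal 60) and 6.50 (animal 97), and the centred values do not. The centred difference was 1.02 ± 0.0876 (SE, limma adjusted p = 4.18e-09), and 0.39 on the deposited scale. Ccdc114, which docks outer arms to the microtubule, read 6.07, 5.58, 5.88, 5.77 and 5.99 in WT cortex and 6.09, 6.20, 6.18, 6.11 and 6.07 in WT hippocampus. Its Ts1Cje arrays ran from 5.72 to 6.13 (median 5.84) and from 6.01 to 6.27 (median 6.14), so the regions overlap as deposited. It was higher by 0.87 ± 0.0559 (limma adjusted p = 3.55e-11) after centring and by 0.25 on the deposited scale. Zmynd10, a factor for assembling dyneins in the cytoplasm, Dynlrb2, a dynein light chain, and Ttc25, another docking factor, were higher by 0.44, 0.44 and 0.24, and all 3 were lower on the deposited scale. Dnai1, an intermediate chain of the outer arms, differed by 0.07 and Armc4, a docking factor, by -0.03, and neither passed.

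Lrrc6, which works with Zmynd10 in dynein assembly, went the other way from most of the list. It read 7.32, 8.03, 7.92, 7.76 and 7.70 in WT cortex and 7.21 to 8.14 (median 7.84) in Ts1Cje cortex. In hippocampus it read 6.48, 6.50, 6.50, 6.23 and 6.48 in WT and 6.20 to 6.59 (median 6.48) in Ts1Cje. It was lower in hippocampus under all 3 scalings, by 0.70 ± 0.0967 after centring (limma adjusted p = 4.65e-06), and in 11 of 11 animals. The size ranged over animals from -0.94 to -0.18, and animals 60 (-0.18) and 64 (-0.40) had the smallest. The centred values of the regions overlap, while the deposited values do not.

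All 8 genes of the radial spokes and the central apparatus were called, 7 higher and 1 lower. Rsph4a, a spoke head protein, read 6.01, 6.37, 6.85, 6.74 and 6.86 in WT cortex and 5.63 to 7.06 (median 6.88) in Ts1Cje cortex, with its hippocampus values given below. It was the highest of the group at 0.95 ± 0.161 (limma adjusted p = 5.62e-05), with overlap between the regions and a spread over animals from 0.24 to 1.59. On the deposited scale it read 0.32 and missed the threshold (limma adjusted p = 0.0609). Spag16, a central apparatus protein, read 5.37, 5.25, 5.26, 5.26 and 5.23 in WT cortex against 5.60, 5.76, 5.58, 5.44 and 5.48 in WT hippocampus. The Ts1Cje arrays ran from 5.17 to 5.44 (median 5.26) and from 5.29 to 5.55 (median 5.49). Its centred difference was 0.85 ± 0.0466 (limma adjusted p = 2.81e-12), and it was 0.22 on the deposited scale. Spef2, Hydin and Spag17, also of the central apparatus, were higher by 0.69, 0.59 and 0.51, but read 0.06, -0.03 and -0.12 as deposited, with Spag17 called lower there. The spoke heads Rsph1 and Rsph9 were higher by 0.51 and 0.37, and read -0.11 and -0.26 as deposited.

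Spag6, a central apparatus protein, was the member of this group with a lower signal in hippocampus. It read 7.00, 6.56, 6.59, 6.59 and 6.46 in WT cortex and 5.83, 5.77, 5.70, 5.73 and 5.73 in WT hippocampus. Ts1Cje arrays ran from 6.46 to 6.85 (median 6.62) in cortex and from 5.47 to 5.98 (median 5.68) in hippocampus. After centring the difference was -0.30 ± 0.0644 (limma adjusted p = 0.000763), and it was below 0 in 11 of 11 animals and called lower under all 3 scalings. The array holds a separate feature for Spag6l, a near-identical copy, which was higher by 0.50 after centring (limma adjusted p = 3.74e-05). As deposited Spag6l read 7.84 to 8.60 in cortex and 8.13 to 8.37 in hippocampus. On that scale it was lower in hippocampus in every animal but 60 and 64, so its opposite direction to Spag6 rests on centring. Probes may not tell the copies apart, so both values are uncertain.

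Of the 8 measured genes of the ruler, the regulatory complex and the tektins, 4 were higher and none was lower. Tekt1, a filament protein of the doublet microtubules, read 6.43, 5.84, 6.21, 6.05 and 6.09 in WT cortex and 6.36, 6.36, 6.47, 6.61 and 6.40 in WT hippocampus. Ts1Cje arrays ran from 5.85 to 6.57 (median 5.99) in cortex and from 6.31 to 6.44 (median 6.40) in hippocampus. The cortex arrays of animals 60 and 64 were the highest of their groups. The centred difference was 0.94 ± 0.0742 (limma adjusted p = 9.89e-10), and it was 0.32 on the deposited scale. Tekt4 was higher by 0.80 after centring and by 0.18 as deposited, while Tekt2 differed by 0.07 and was not called. Iqca and Ccdc113, linked to the regulatory complex, were higher by 0.32 and 0.25 after centring and lower as deposited. The ruler proteins Ccdc39 and Ccdc40 differed by 0.25 and 0.02 and Enkur, a protein inside the doublet, by 0.24, and none of the 3 passed. With the replicate block Ccdc39 and Enkur were called higher (limma adjusted p = 0.00904 and 0.0389 with a random block). Ccdc39 differed by 0.55 and 0.67 in animals 60 and 64, against -0.04 to 0.31 in the other animals. Enkur differed by 1.16 in animal 60, against -0.23 to 0.36 in the other animals.

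Among the other genes of the list 4 of 6 were higher. Ak7, an adenylate kinase of motile cilia, read 6.29, 6.19, 6.45, 6.37 and 6.30 in WT cortex and 6.88, 7.05, 6.90, 6.76 and 6.90 in WT hippocampus. Ts1Cje arrays ran from 6.33 to 6.58 (median 6.44) in cortex and from 6.60 to 7.06 (median 6.88) in hippocampus. Every hippocampus array was above every cortex array as deposited. The centred difference was 1.12 ± 0.0575 (2.17-fold, limma adjusted p = 8.81e-13), and it was 0.49 as deposited. Meig1, known for its role in sperm, read 6.35, 6.96, 6.96, 6.87 and 6.92 in WT cortex and 7.02, 7.21, 7.21, 7.03 and 7.14 in WT hippocampus. Its Ts1Cje arrays ran from 6.04 to 7.83 (median 6.98) in cortex and from 6.74 to 7.33 (median 7.25) in hippocampus, with overlap. It was higher by 0.87 ± 0.142 (limma adjusted p = 3.43e-05), with a range over animals from 0.09 to 1.32, and read 0.25 as deposited (limma adjusted p = 0.099). Mlf1 was higher by 0.69 and Tppp3, a protein that promotes tubulin assembly, by 0.19. As deposited Mlf1 read 0.06 and was not called, and Tppp3 was lower. Ak8, another adenylate kinase, differed by 0.15 and Efhc2, a protein of the doublet, by -0.16, and neither passed. With the replicate block Ak8 was called higher and Efhc2 lower (limma adjusted p = 0.00946 and 0.0429 with a random block).

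Tissue beside the ventricle can enter a dissection in varying amounts, so markers of the neighbouring tissues were read beside the cilia genes. The choroid plexus is the epithelium that secretes cerebrospinal fluid, and 20 of its 21 markers were higher in hippocampus, with a median of 1.90. The mean of the 21 ranged from 6.59 to 7.67 over cortex arrays and from 7.78 to 8.49 over hippocampus arrays. Ttr, its transthyretin gene, read 8.01 to 12.60 in cortex and 12.62 to 13.09 in hippocampus, a centred difference of 2.96 ± 0.519. Within animals the Ttr difference ran from 0.85 to 5.52 while that of Foxj1 ran from 0.75 to 1.22. In WT cortex Ttr read 8.29, 9.58, 12.49, 8.56 and 12.60, in the order of the Foxj1 values above. In Ts1Cje cortex Ttr read 10.63, 12.13, 11.33, 10.41, 8.01 and 12.47, where Foxj1 read 6.71, 6.52, 6.93, 6.66, 6.70 and 6.78. The mean over the 36 cilia genes was higher in hippocampus after centring in 11 of 11 animals, by 0.32 to 0.49, and that of the choroid plexus markers by 0.81 to 2.35. All 10 striatal neuron markers were lower in hippocampus, and their mean ranged from 9.72 to 10.41 over cortex arrays and from 7.53 to 7.90 over hippocampus arrays. All 11 hippocampal neuron markers were higher in hippocampus and 9 of 11 cortical neuron markers were lower. The part of choroid plexus or striatal tissue in the cilia gene difference was not tested.

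Other genes known from motile cilia and ependymal cells were read in the same fit, in which 19.9% of all genes were called higher and 21.6% lower. Of 13 ependymal markers outside the cilium 11 were higher in hippocampus and 1, S100a6, was lower. Their median was 0.65, and Calml4, Sntn, Mia and Fam183b were higher by 2.00, 1.09, 0.99 and 0.99. Calml4 is also counted among the choroid plexus markers above, so its value is not particular to ependymal cells. Of 79 further motile cilia genes 36 were higher, 7 lower and 36 not called, with a median of 0.15. The largest was Gmnc at 1.95 ± 0.0798 (limma adjusted p = 2.27e-14), the geminin relative that starts the multiciliated programme and that is also expressed in other brain cells, followed by Cfap44 at 0.83. Odf4 was lower by 0.68. Of 14 dynein heavy chains 4 were higher and 2 lower, with Dnah9 at 1.29 and Dnah6 at 0.86 the largest. These counts are near the shares of all genes and are not read as a result about the list. The 48 genes of ciliary assembly and the primary cilium, which neurons and glia also bear, had 4 higher and 13 lower and a median of -0.08. All values in this paragraph are after centring, and deposited values lie lower by about the shift of all genes given above.

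Genotype was compared next, within each region and on the values as deposited. In cortex none of the 36 cilia genes passed an adjusted p under 0.05 in limma, and none had an unadjusted p under 0.05. Of all 20239 genes 1 (0.00494%) was called there, and 263 had an unadjusted p under 0.05. The median difference, Ts1Cje minus WT, was 0.01 for the cilia genes and 0.00 for all genes, and 21 of 36 were above 0. Differences ran from -0.15 ± 0.101 (SE) for Ak8 to 0.22 ± 0.192 for Enkur. The WT and Ts1Cje arrays overlapped for every one of the 36, while 0.306% of all genes showed no overlap. Enkur read 4.65, 5.72, 5.72, 5.58 and 5.65 in WT and 5.26 to 5.86 (median 5.75) in Ts1Cje. The lowest array of each group is that of animal 60 or 64, and without both the Enkur difference was 0.11 ± 0.046. Meig1, Dynlrb2, Ak7, Rsph1, Zmynd10 and Iqca had differences of 0.18, -0.15, 0.13, -0.12, -0.12 and -0.11. Iqca turned to 0.04 without WT animal 60.

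Foxj1 in cortex differed by -0.01 ± 0.0869 (95% CI -0.20 to 0.18) between 5 WT and 6 Ts1Cje animals. Its sign turned in 5 of 21 alternatives, with no value above 0.03. The intervals of all 36 genes lay between -0.54 (Mcidas) and 0.74 (Meig1), so changes of that size in single genes are not excluded at 5 against 6 arrays. With animals 60 and 64 both left out, 0 of 36 were called, against 32 of all genes (0.158%), the median was 0.04, and 26 of 36 were above 0. Over all genes 1208 then had an unadjusted p under 0.05 in limma, against 263 with every animal kept.

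In hippocampus the cilia genes lay mostly below 0, but none passed. With limma 0 of 36 were called and 0 had an unadjusted p under 0.05, against 23 called of all genes (0.114%) and 750 with an unadjusted p under 0.05. Those called were 0.104% of all genes higher and 0.00988% lower. No cilia gene separated the genotypes without overlap, as 0.637% of all genes did. The median was -0.05, against -0.01 for all genes, and 27 of 36 lay below 0, against 10877 of 20239. It was -0.03 with 24 of 36 below 0 without animals 60 and 64, and -0.02 with array weights. Rsph4a had the lowest value. It read 6.94, 7.15, 7.25, 7.10 and 6.95 in WT and 6.10 to 7.07 (median 6.88) in Ts1Cje, with animal 64 the lowest. The groups overlap, and the difference was -0.31 ± 0.152 (95% CI -0.64 to 0.02, unadjusted p = 0.0646, adjusted p = 1 in limma). Foxj1 had a difference of -0.13 ± 0.0618 (95% CI -0.26 to 0.01, unadjusted p = 0.0645, adjusted p = 1 in limma). Its WT arrays ran from 7.11 to 7.44 and its Ts1Cje arrays from 7.02 to 7.19, with overlap, and WT animal 60 was the highest. Without animals 60 and 64 Foxj1 read -0.07 and Rsph4a -0.21. Efhc2, Enkur, Spag16, Rsph1, Rfx3 and Dynlrb2 had differences of -0.20, -0.16, -0.13, -0.11, -0.10 and -0.09. By role the medians were alike, from -0.06 for the dynein and the tektin groups to -0.04 for the regulators and the other genes.

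**Figure D3:**
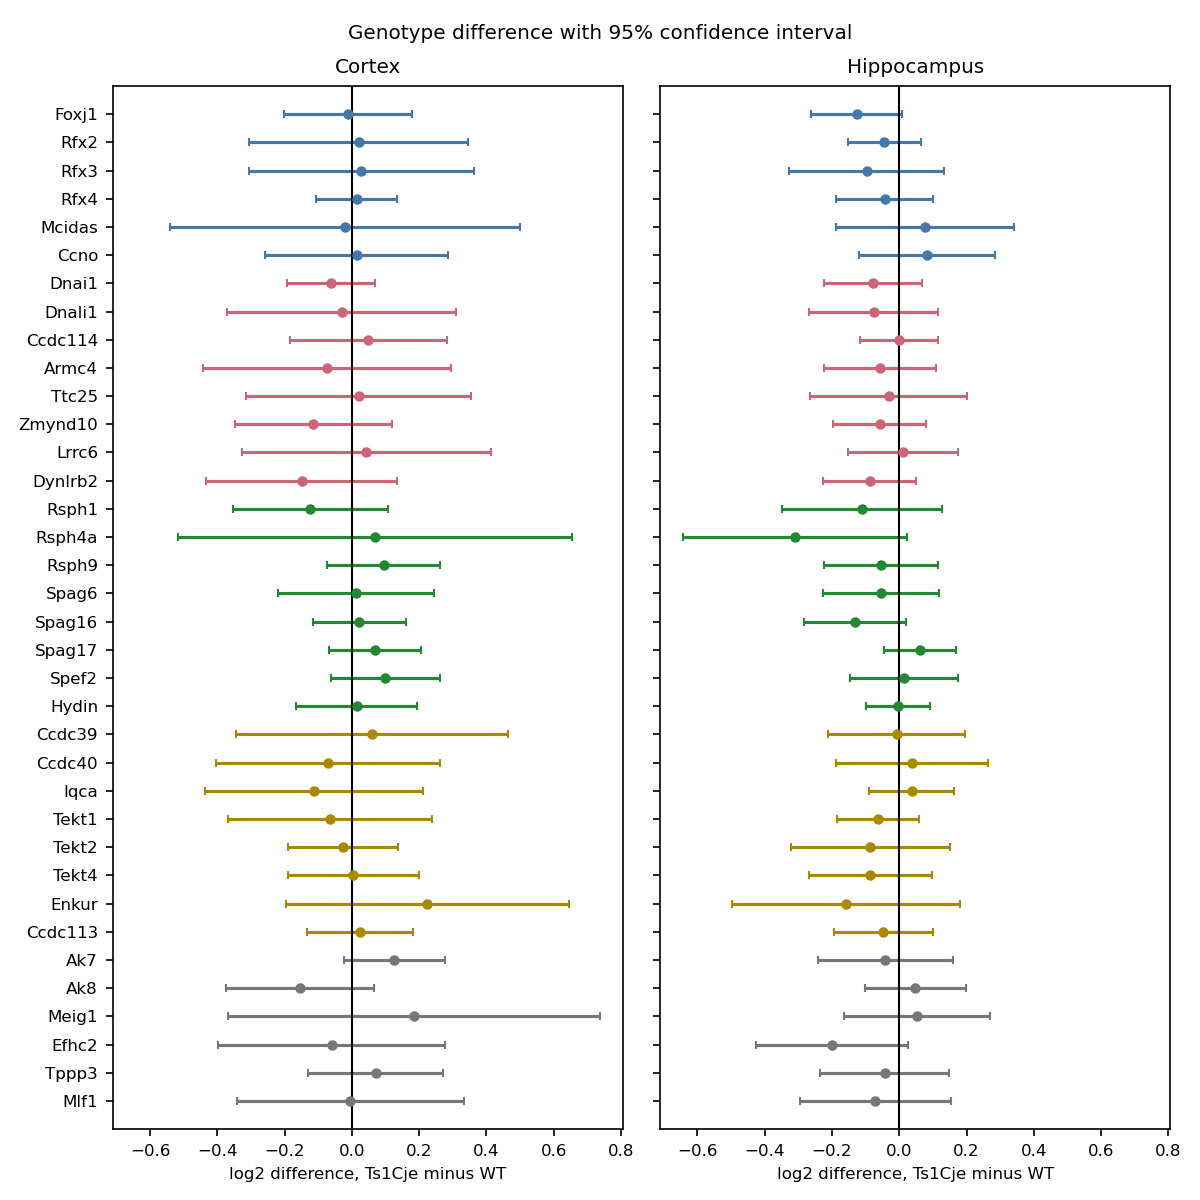
Log2 difference, Ts1Cje minus WT, of the 36 cilia genes in cortex (left) and hippocampus (right), with 95% confidence intervals from limma (5 WT and 6 Ts1Cje animals). Genes are in the order of their roles, with regulators blue, dynein genes red, spokes and central apparatus green, ruler, regulatory complex and tektins yellow, and others grey. Every interval includes 0, and 27 of 36 points lie below 0 in hippocampus.

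Other markers of the ventricle, and those of several other cell types, also lay mostly below 0 in hippocampus. Of 21 choroid plexus markers 19 were below 0, with a median of -0.21 and 0 called. Their mean per array ran from 7.98 to 8.49 in WT and from 7.78 to 8.48 in Ts1Cje. The 2 markers above 0 were Clic6 and Kcne2, at 0.21 and 0.23. Of the 21 markers 3 lie on chromosome 16, part of which is in excess in Ts1Cje, and they were kept in this mean. Of 13 other ependymal markers 12 were below 0, with a median of -0.09 and 0 called, and their mean ran from 6.93 to 7.01 in WT and from 6.63 to 7.01 in Ts1Cje. The 6.63 is animal 64, and the next Ts1Cje array read 6.86. Calml4 is counted in both the choroid plexus and the ependymal list. Outside the ventricle 12 of 15 astrocyte, 9 of 11 hippocampal neuron, 8 of 10 endothelial and 6 of 9 microglia markers were below 0. The medians of these 4 lists were -0.05, -0.07, -0.03 and -0.02. So were 6 of 11 cortical neuron and 5 of 8 neuroblast markers. Of 10 oligodendrocyte markers 8 were above 0, with a median of 0.04, and of 10 striatal neuron markers 6 were above 0. The part of dissection in the hippocampal values was not tested. The mean over the 36 cilia genes ran from 6.35 to 6.42 (6.39 ± 0.0288, SD, n = 5) in WT hippocampus and from 6.29 to 6.40 (6.34 ± 0.0409, n = 6) in Ts1Cje. In cortex it ran from 6.51 to 6.72 (6.59 ± 0.0863) in WT and from 6.55 to 6.67 (6.60 ± 0.0445) in Ts1Cje. In both regions the genotypes overlap. In 79 further motile cilia genes 0 were called in either region, with medians of -0.01 in cortex and -0.03 in hippocampus.

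**Figure D4:**
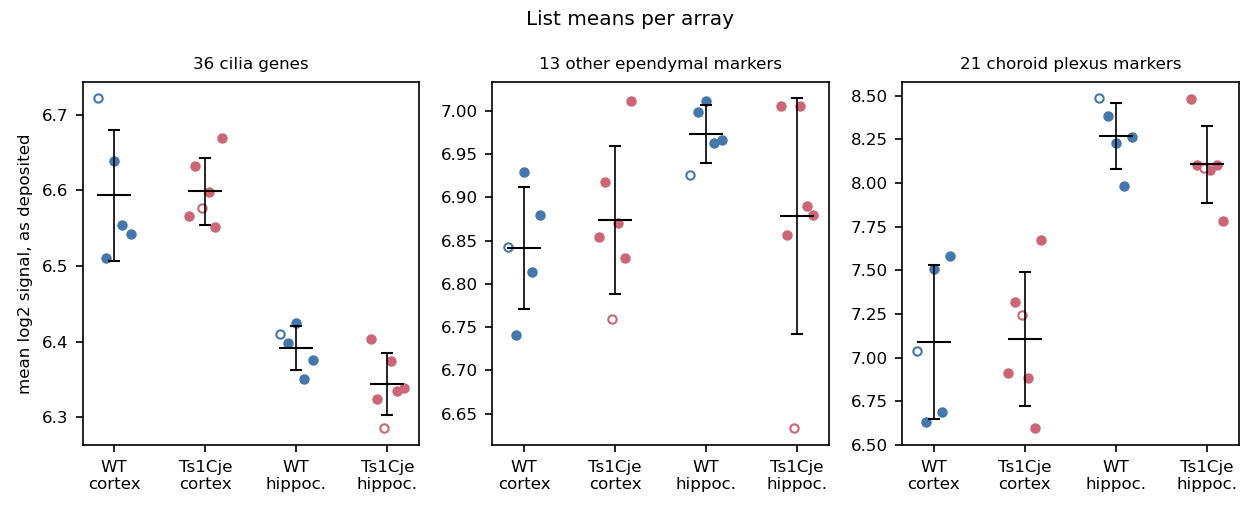
Mean log2 signal per array, as deposited, over the 36 cilia genes (left), 13 other ependymal markers (middle) and 21 choroid plexus markers (right) in the 4 groups, with bars at the mean ± SD of 5 WT or 6 Ts1Cje arrays and open points for animals 60 and 64. The genotypes overlap within each region for all 3 lists. Calml4 is in both marker lists, and 3 of the 21 choroid plexus markers lie on chromosome 16. The cilia mean lies lower in hippocampus on this scale, on which the median of all genes shifts by -0.63.

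The difference of the genotype effect between the regions was tested directly. In limma 0 of 36 cilia genes and 0 of all genes were called, with 0 of 36 and 260 of all genes at an unadjusted p under 0.05. This fit did not use the pairing of the regions within animals. With the animal as a replicate block, 912 (random) or 850 (fixed) of all genes had an unadjusted p under 0.05 in limma. No gene was called in these 2 fits either. The errors and intervals below are from the unpaired fit. The median of the difference, hippocampus minus cortex, was -0.06 for the cilia genes and -0.01 for all genes. It was -0.09 without animal 60 and -0.03 without animal 62, 97 or 98. Enkur had the largest at -0.38 ± 0.258 (95% CI -0.92 to 0.15), followed by Rsph4a at -0.38 ± 0.322 (95% CI -1.05 to 0.29). For Foxj1 it was -0.11 ± 0.105 (95% CI -0.33 to 0.11).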

How the data were processed

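The authors deposited log2 values, 1 per Entrez gene number, made with RMA per the submitters' processing notes. The number of arrays limits the precision. The sources used here do not give the settings of RMA or state that cortex and hippocampus were normalized as 1 set. RNA had an integrity number above 9, per the labels' protocols. The labels do not say whether arrays of a region shared a batch. A WT animal numbered 60 in titles is 61 in descriptions, and the title was used.

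Features were named through the platform table and RefSeq (GRCm38.p6). limma 3.58.1 in R 4.3.3 (lmFit, eBayes, two-sided) was fitted on 20239 genes with Benjamini-Hochberg adjustment, called at adjusted p under 0.05. Genotype was fitted within each region. Region and interaction used all 22 arrays in 4 groups, region after centring arrays on their median. The script was tested on simulated data. Members and lists were chosen with earlier results of these data known. Differences are given for the 8 members with the largest absolute difference in a comparison and for Foxj1. Array values are given for the 8 of the region comparison and, picked after their values were seen, for Lrrc6, Spag6 and Enkur. Alternatives are in the closing section.

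Pairing comes from the animal numbers in the labels. With group means removed, the arrays of an animal had a median r over genes of 0.265, from 0.0523 to 0.761, and the animal's own partner matched best in 2 of 11. The consensus correlation was 0.436.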

Additional observations from a re-analysis of the deposited data

Results flagged for a closer look

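Values that stood far from the rest of their group, by the gap to the nearest other array relative to the group's range, were sought among 17 named cilia genes and the 2 list means in 76 groups. Chance alone gives such a value in about 5% of groups of independent, normally distributed values, and 14 were found. The signals are coarse and the same arrays recur across the groups, so the 5% is only a rough guide here. Of the 14 values 13 were on arrays of animals 60 and 64, and their cause was not tested.

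WT animal 60 in cortex had Enkur at 4.65 against 5.58 to 5.72 in the other WT arrays, Meig1 at 6.35 against 6.87 to 6.96, and Ak8 at 7.16 against 7.41 to 7.45. The same array had Iqca at 6.24 against 5.38 to 5.53 and Spag16 at 5.37 against 5.23 to 5.26. In hippocampus this animal had Iqca at 5.30 against 5.20 to 5.22 and Rfx3 at 9.42 against 9.79 to 9.87.

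Ts1Cje animal 64 in cortex had Enkur at 5.26 against 5.72 to 5.86, Rfx3 at 9.19 against 9.78 to 9.94, and Tekt1 at 6.57 against 5.85 to 6.05. In hippocampus it had Meig1 at 6.74 against 7.20 to 7.33, Iqca at 5.50 against 5.21 to 5.26, and Rfx3 at 9.30 against 9.63 to 9.82. The other value was Dynlrb2 in the hippocampus of Ts1Cje animal 87, at 5.93 against 5.71 to 5.78.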

How the results depend on the processing

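The count of cilia genes called by genotype was 0 of 36 in both regions, and 0 for the interaction, under all 21 alternatives, which were a trend and robust prior, array weights, every feature, the 6746 dimmest genes left out, an adjusted p under 0.1, quantile normalization, centring, a single fit or the replicate block, and omission of each animal or of 60 and 64. For region 26 were called. With the 6746 dimmest genes left out 17 of the 22 genes that remained were called, since fewer were tested, against 46.5% of all genes tested there. The region median was -0.28 as deposited and 0.39 without animals 60 and 64. Without these 2 animals 27 were higher and 4 lower, while 65.5% of all genes were called. Leaving out 1 animal gave 24 to 29 calls, against 36.4% to 48.1% of all genes. Foxj1 in cortex turned to 0.00039 with array weights and 0.026 with quantile normalization, and omitting animal 60, 63 or 98 gave 0.022, 0.026 and 0.020, in a range over single omissions of -0.064 to 0.026. Iqca in cortex turned to 0.044 without animal 60 and was at its lowest, -0.17, without animal 64. The cause was not tested. A replicate block for the animal gave 30 region calls when random, with Ccdc39, Ak8, Enkur and Efhc2 added, and 31 when fixed, with Mcidas added to those. Over all genes 54.2% and 54.1% were called in these 2 fits. The pairing changed no count of cilia genes called by genotype or for the interaction. The median in cortex ran from -0.031 to 0.039 when 1 animal was left out.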

Other observations

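The 48 genes of ciliary assembly and the primary cilium lay mostly on opposite sides of 0 in the 2 regions, without any call. In cortex 35 of 48 had a Ts1Cje minus WT difference above 0, with a median of 0.05, against 9818 of all 20239 genes above 0. In hippocampus 40 of 48 were below 0, with a median of -0.04, against 10877 of all genes. The 6746 brightest genes had medians on these same sides, 0.03 in cortex and -0.02 in hippocampus. The pattern is therefore not particular to the 48 genes. The arrays of animals 60 and 64 stood apart in the mean of these genes, at 8.22 and 8.27 in cortex against 8.56 to 8.62 for the other 9 arrays, and at 7.77 and 7.63 in hippocampus against 7.81 to 7.87. Their part in these counts was not tested. For the difference of the effect between the regions 0 were called and 1 had an unadjusted p under 0.05 in limma. The 6746 dimmest genes had median genotype differences of -0.07 in cortex and 0.04 in hippocampus, and the 14 cilia genes among them had medians of 0.01 and -0.05.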
